A study of Mus musculus with 4 samples.

Results

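The genes described are 10 inflammatory cytokine and NF-kB feedback genes of the mouse aorta: Tnf, Il1a, Il1b, Il1rn, Il6, Il10, Il18, Tnfaip3, Nfkbia and Nfkbiz. They were taken by name, by matching Ensembl IDs to symbols, and are 10 of the 27998 genes in the files. All 10 were found in each of the 4 single-cell RNA libraries. Aged descending intima gave 2 libraries, a and b, each pooled from 6 C57BL/6 mice. Young arch intima gave 1 library pooled from 8 C57BL/6 mice, and aged adventitia gave 1 library for which the labels give no number of mice. Per the labels, every library came from aortae perfused with versene, treated with trypsin and scraped in the presence of actinomycin D, a blocker of transcription, before red cells were lysed. The labels repeat this intimal protocol for the adventitia. Age comes from the sample titles, sex is not given, and no group carries a genotype or treatment of its own. Age and aortic region changed together between the arch and the descending libraries, so they cannot be told apart.

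NF-kB is a family of transcription factors held in the cytoplasm by inhibitor proteins and released when receptors for TNF, IL-1 or microbial products fire. Tnf, Il1a, Il1b and Il6 encode secreted inflammatory cytokines of this response, Il18 encodes another IL-1 family cytokine, and Il1rn and Il10 encode the IL-1 receptor antagonist and an anti-inflammatory cytokine. Nfkbia (IkBa, which binds NF-kB), Tnfaip3 (A20, a ubiquitin-editing enzyme) and Nfkbiz (IkBz, a nuclear regulator of secondary targets) are themselves switched on by NF-kB and shape or end the response. In the aortic wall, macrophages are a known source of TNF and IL-1, and fibroblasts of IL-6.

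The promoter windows of Nfkbia, Tnfaip3, Tnf and Il6 are printed because they hold the kB words that these feedback and cytokine genes are known for. Each window is the 250 bases before the RefSeq start in GRCm38.p6, 5′ to 3′ on the gene's strand. Capitals mark matches, on either strand, to GGGNNNTTCC, GGGNNNTCCC, GGGNNNCTCC or GGGNNNCCCC, words that overlap one another. In GENCODE M21 on GRCm38, Tnf spans chr17:35199381-35202007, Il6 chr5:30013114-30019981, Il10 chr1:131019845-131024974, Il18 chr9:50554827-50581840 and Il1rn chr2:24336853-24351494. Il1a at chr2:129299610-129309972 and Il1b at chr2:129364570-129371139 lie near each other on chromosome 2. Nfkbia spans chr12:55489410-55492647, Tnfaip3 chr10:19000910-19015657 and Nfkbiz chr16:55811375-55838899. The window of Nfkbia lies at chr12:55492648-55492897 (minus strand), Tnfaip3 at chr10:19015411-19015660 (minus), Tnf at chr17:35202008-35202257 (minus) and Il6 at chr5:30012864-30013113 (plus).
Nfkbia: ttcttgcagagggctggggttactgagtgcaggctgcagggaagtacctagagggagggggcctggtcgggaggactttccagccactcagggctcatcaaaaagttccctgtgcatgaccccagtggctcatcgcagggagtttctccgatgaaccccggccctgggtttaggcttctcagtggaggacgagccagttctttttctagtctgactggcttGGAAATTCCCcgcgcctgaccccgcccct
Tnfaip3: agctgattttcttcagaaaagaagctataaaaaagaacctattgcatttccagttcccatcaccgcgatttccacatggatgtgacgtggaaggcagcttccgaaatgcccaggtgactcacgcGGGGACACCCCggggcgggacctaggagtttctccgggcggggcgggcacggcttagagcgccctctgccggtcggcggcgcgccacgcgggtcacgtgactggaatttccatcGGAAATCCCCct
Tnf: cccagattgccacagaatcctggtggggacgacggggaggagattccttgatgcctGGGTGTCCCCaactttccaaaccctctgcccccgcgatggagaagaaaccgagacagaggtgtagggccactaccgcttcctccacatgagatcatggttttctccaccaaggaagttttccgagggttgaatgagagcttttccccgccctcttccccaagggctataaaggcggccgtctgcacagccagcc
Il6: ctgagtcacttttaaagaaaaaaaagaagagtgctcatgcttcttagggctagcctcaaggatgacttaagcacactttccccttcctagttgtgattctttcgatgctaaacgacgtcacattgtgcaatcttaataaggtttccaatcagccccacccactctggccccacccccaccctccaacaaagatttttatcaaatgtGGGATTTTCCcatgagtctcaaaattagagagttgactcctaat
The Nfkbia word sat 29 to 20 bases before the start and the Il6 word 44 to 35 bases before it. The Tnf word sat 194 to 185 bases before the start. Tnfaip3 held 2 stretches, 1 of overlapping words at 126 to 116 bases and 1 at 12 to 3 bases before the start. Of the 10 genes, 8 had at least 1 RefSeq window, and Il10 and Nfkbiz had none. A word was also found in a second Tnfaip3 window and in 1 of 3 Il1rn windows, and in no window of Il1a, Il1b or Il18. Across all 32851 windows of this length, 5506 (16.8%) held a word. A match describes letters and is not evidence of binding.

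The files held 2095, 2178, 2187 and 9347 barcodes for descending a, descending b, arch and adventitia, and 1988, 2091, 2114 and 7904 cells remained after filters and doublet removal. Median depths were 5198.5, 4872, 6952 and 2476 UMIs (unique molecular identifiers, counts of captured RNA molecules) per cell. Between 4 and 31 barcodes were shared by any pair of libraries. Cells were clustered without the 10 genes and their pathway lists, and clusters were named by RNA markers, so each class name below means "like" that type. Macrophages numbered 82, 70, 115 and 661 cells, endothelial cells 1462, 1285, 1243 and 374, and fibroblasts 337, 648, 436 and 1445. All 10 listed macrophage markers were present in the macrophages of each library, summing to 17742 to 23318 CPM (counts per 1000000 UMIs).

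Macrophages fell into 4 named types and an unnamed cluster of 17 adventitial cells led by the natural killer genes Xcl1, Cd7 and Ifng, which counts among the 661 adventitial macrophages and held Tnf at 165 CPM (87.8 to 282). The intima resident type (Itgax, Mmp12, Cd207) had 25, 18 and 75 cells in the intimal libraries and 0 in the adventitia. The Lyve1 type had 57, 52, 40 and 257 cells, of which 256 of the 257 adventitial ones formed a cluster of their own led by Cd209d, while the intimal ones lay in a cluster led by Plekhg5 and the interferon response genes Rsad2 and Ifit1. A Ccr2 MHC class II type (267 cells) and a serosal type marked by Gata6, Prg4 and Alox15 (120 cells) were found in the adventitia. Levels below are a gene's UMIs per 1000000 UMIs of the summed group (CPM). Ranges in parentheses are 95% exact Poisson intervals, which cover counting error only.

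**Figure D1:**
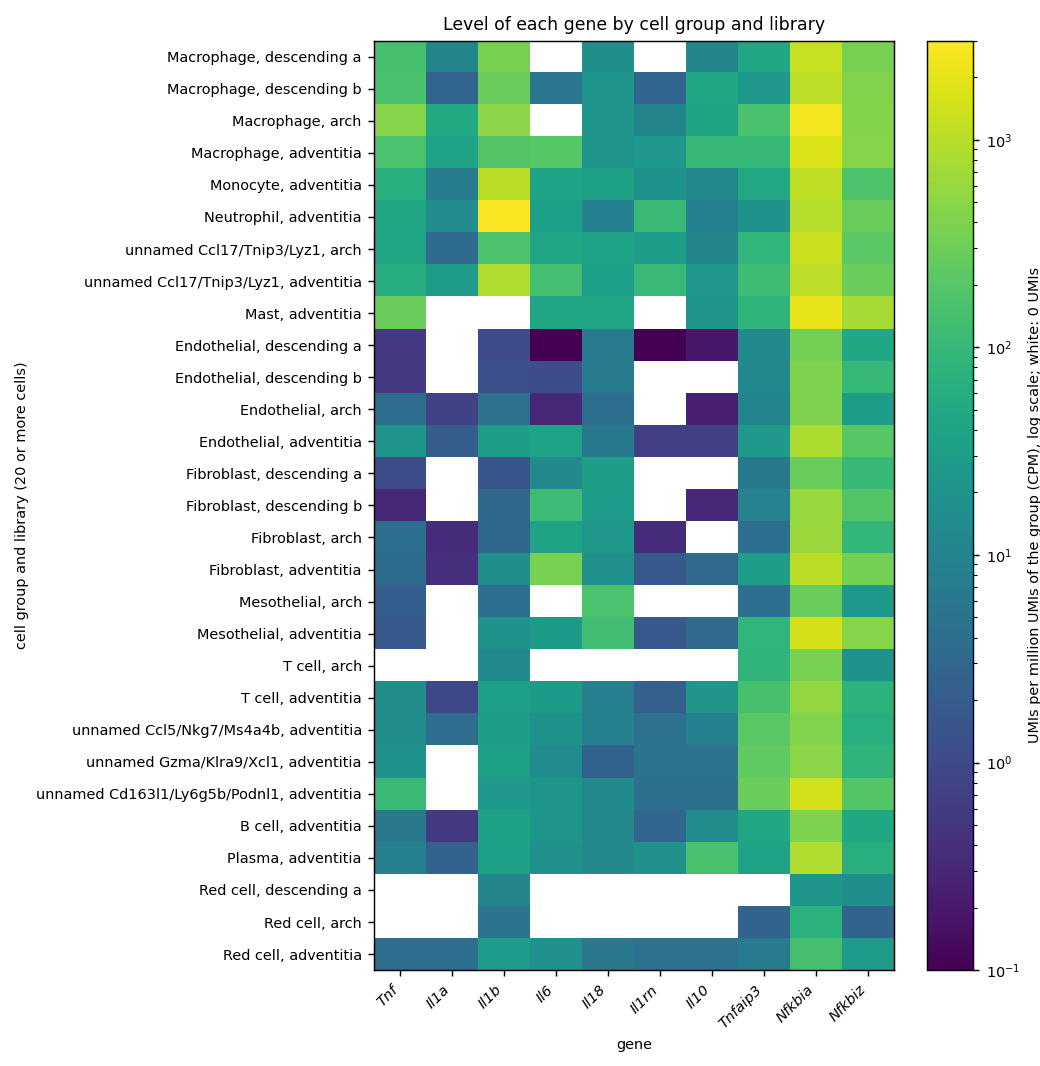
Level of each gene (columns) in each cell group and library of at least 20 cells (rows), in CPM on a log colour scale, with white for 0 UMIs. Tnf and Il1b are bright in myeloid rows, Il6 in fibroblast rows, Il18 in mesothelial rows, and Nfkbia in nearly every row.

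Tnf encodes the cytokine TNF, which drives NF-kB in its target cells. The intima resident type held 50, 43 and 398 Tnf UMIs in descending a, descending b and arch, or 441, 456 and 588 CPM. Lyve1 macrophages of the same libraries held 1, 11 and 6 UMIs, or 4.28, 42.7 and 29.0 CPM. The groups did not overlap, and each intima resident value was over 10 times the highest Lyve1 value. In the adventitia, Tnf stood at 122 CPM (99.9 to 148) in the Lyve1 type, 185 (158 to 216) in the Ccr2 type and 183 (154 to 215) in the serosal type. The Ccr2 and serosal intervals overlapped. Outside macrophages, the 21 mast cells stood at 279 CPM from 13 UMIs (149 to 477) and an unnamed cluster led by Cd163l1 at 102 (64.9 to 154).

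Most Tnf UMIs of the intima came from macrophages, which were 3.35 to 5.44% of its cells. They held 76.1% of the Tnf UMIs in descending a, 78.3% in descending b, 83.1% in the arch and 55.1% in the adventitia. Endothelial cells stood at 0.576, 0.569, 4.08 and 21.1 CPM, and fibroblasts at 1.06, 0.315, 4.40 and 3.77. In the arch, 63 of 75 intima resident cells (84.0%) had a Tnf UMI, against 3.78% of endothelial cells, and the median depths were 8973 and 8393 UMIs. At a fixed depth of 2000 UMIs per cell the shares in the intima resident type were 43.5%, 43.8% and 62.7% (10 of 23, 7 of 16 and 47 of 75 cells). The unthinned descending shares were 56.0% and 55.6%. The highest cell held 20 Tnf UMIs.

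**Figure D2:**
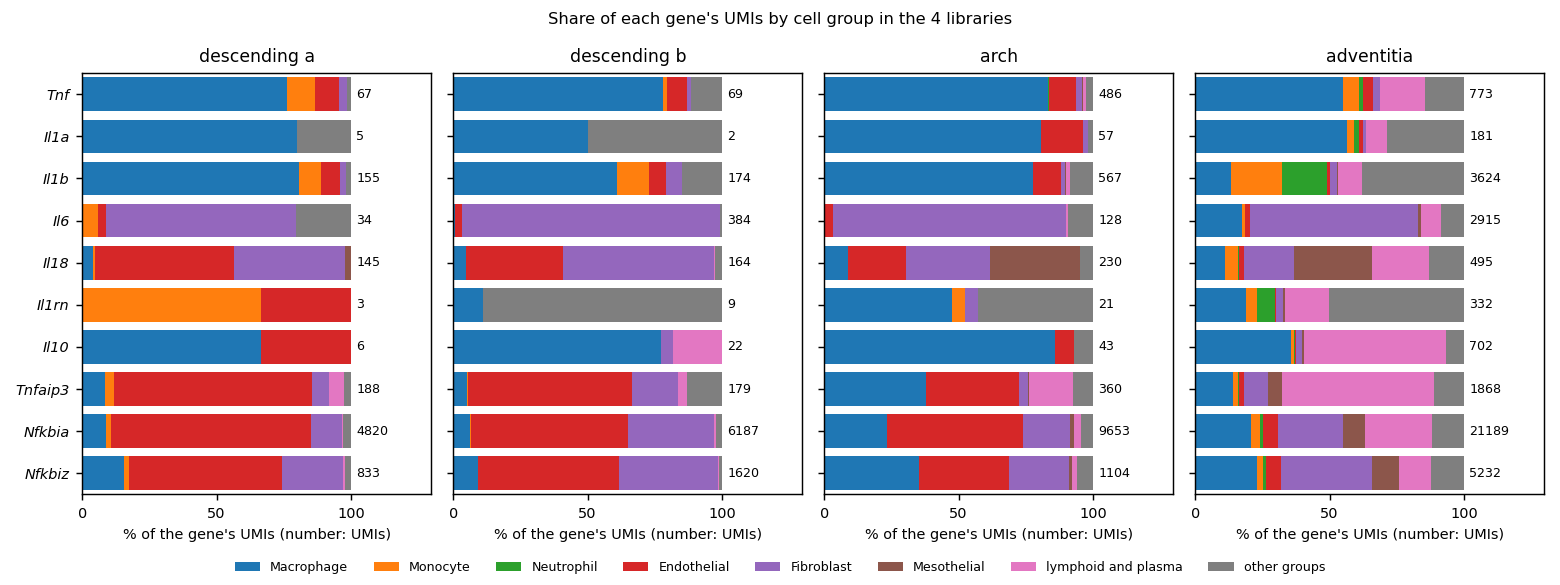
Share of each gene's UMIs (x axis, %) that lay in each cell group, one panel per library, with the gene's UMI total at the right of each bar. Macrophages hold most Tnf of every library, fibroblasts most Il6, and endothelial cells most Nfkbia of the 3 intimal libraries.

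Il1b, the secreted IL-1 cytokine that needs cleavage by an inflammasome, lay almost wholly in 1 of the 2 intimal macrophage types. The intima resident type held 124, 104 and 440 Il1b UMIs in descending a, descending b and arch, or 1093, 1103 and 649.8 CPM. Lyve1 macrophages held 1, 2 and 1 UMIs in the same libraries, or 4.28, 7.76 and 4.83 CPM. The groups did not overlap, and the arch intima resident value was the lowest of the 3. Shares of intima resident cells with an Il1b UMI were 80.0%, 72.2% and 77.3% unthinned and 78.3%, 43.8% and 49.3% at 2000 UMIs per cell, against 0.752%, 0.856% and 4.59% of endothelial cells unthinned. The marker list of neutrophils, a rich source of Il1b, summed to 8.82, 0 and 11.8 CPM in the intima resident cells, with Ly6g, Cxcr2 and Retnlg at 0 in all 3 libraries. It summed to 151 to 213 CPM in their Lyve1 cells.

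In the adventitia most Il1b lay outside macrophages. Neutrophils stood at 2862 CPM (2639 to 3099), monocytes at 1042 (966 to 1123), and an unnamed cluster led by Ccl17, Tnip3 and Lyz1, with markers of macrophages and of dendritic cells, at 886 (839 to 935). The intervals of these 3 groups did not overlap, and adventitial macrophages stood below them at 183 CPM. They held 13.2% of the 3624 Il1b UMIs, against 60.9 to 80.6% in the 3 intimal libraries. In the arch the 32 cells of the Ccl17 cluster stood at 171 CPM (126 to 228). Adventitial serosal and Ccr2 macrophages stood at 292 and 232 CPM. B cells, T cells, plasma cells and red cells of the adventitia held 36.2, 33.0, 34.2 and 30.1 CPM, a like low level across unrelated types, and adventitial Lyve1 macrophages at 41.9 (29.3 to 58.0) were not clearly above it.

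Il1a, the IL-1 cytokine that acts without inflammasome cleavage, was found mainly in the serosal and the arch intima resident macrophages. Serosal macrophages held 87 Il1a UMIs, or 109 CPM (87.2 to 134). The intima resident type held 4, 1 and 46 UMIs, or 35.3, 10.6 and 67.9 CPM, with the arch highest. Intimal Lyve1 macrophages held 0 Il1a UMIs in all 3 libraries, where the intervals reach up to 15.8, 14.3 and 17.8 CPM. Macrophages held 80.7% of the 57 Il1a UMIs in the arch and 56.4% of the 181 in the adventitia. In the serosal type, 38 of 120 cells had an Il1a UMI, and 34 of those 38 also had an Il6 UMI, against 54.9% of the other serosal cells. Their median depths were 7717 and 5271 UMIs, so depth moved with this split and its part in the result was not tested.

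Il1rn, which encodes the antagonist of the IL-1 receptor, was sparse in the intima, with 3, 9 and 21 UMIs in descending a, descending b and arch, and 332 in the adventitia. Adventitial neutrophils stood at 109 CPM (68.9 to 163) and the Ccl17, Tnip3 and Lyz1 cluster at 107 (91.4 to 125), with overlapping intervals. Both groups were also high in Il1b. The highest adventitial cell held 40 of the 332 Il1rn UMIs, against 2 for the highest neutrophil, and its group is not given here. Intima resident macrophages held 0, 0 and 10 Il1rn UMIs, so the antagonist was not detectable beside Il1b in the descending cells at this depth. For 0 UMIs the intervals there reach up to 32.5 and 39.1 CPM.

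Il18, which also needs inflammasome cleavage, did not follow the myeloid pattern. Mesothelial cells, the lining of serous cavities, held 77 Il18 UMIs in the arch and 144 in the adventitia, or 165 and 126 CPM. Fibroblasts held 31.8, 29.0, 26.4 and 18.4 CPM in descending a, descending b, arch and adventitia, and macrophages 17.3, 22.7, 22.6 and 21.1. Endothelial cells were lowest of these classes in each library, at 7.20, 6.72, 4.16 and 6.34 CPM. Of mesothelial cells in the arch, 29 of 44 (65.9%) had an Il18 UMI, against 3.94% of endothelial cells. Median depths were 8940.5 and 8393 UMIs. Serosal macrophages, which are known to live beside mesothelium, held only 4 Il18 UMIs, or 5.01 CPM (1.36 to 12.8).

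Il6, a cytokine that acts through gp130, was a fibroblast gene in every library, with 62.5 to 96.4% of its UMIs in that class. Fibroblasts held 24, 370, 111 and 1821 Il6 UMIs, or 12.7, 117, 40.7 and 361 CPM, in descending a, descending b, arch and adventitia. The 2 descending libraries were far apart, with the arch between them and the adventitia above all. Shares of fibroblasts with an Il6 UMI were 4.75%, 20.8%, 11.5% and 38.9%, or 3.01%, 12.4%, 6.19% and 30.7% when thinned to 2000 UMIs. Endothelial shares were 0.0684%, 0.778%, 0.322% and 9.36%. Among adventitial fibroblasts the top 10% of cells held 60.7% of the Il6 UMIs, against 30.9% for Nfkbia.

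Serosal macrophages were the other Il6 group, at 441 UMIs or 552 CPM (502 to 606), above adventitial fibroblasts (345 to 378). The other adventitial types were far lower, with 39.6 CPM (27.4 to 55.3) in adventitial Lyve1 macrophages and 38.9 (26.9 to 54.3) in the Ccr2 type. B cells, T cells and red cells of the same library held 23.2, 27.9 and 18.7 CPM. Intimal macrophages held 0, 2 and 0 Il6 UMIs. Of serosal cells, 79 of 120 (65.8%) had an Il6 UMI, against 5.38% of B cells, at median depths of 5757.5 and 2072 UMIs. At 2000 UMIs per cell the shares were 47.5% and 3.53%.

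Il10, an anti-inflammatory cytokine, was found in plasma cells and macrophages. Adventitial plasma cells held 243 Il10 UMIs, or 157 CPM (138 to 178). Adventitial Lyve1, serosal and Ccr2 macrophages held 121 CPM (98.9 to 147), 103 (81.7 to 127) and 70.9 (54.3 to 90.8), with the Lyve1 and serosal intervals overlapping. In the intima, Lyve1 macrophages held 4, 12 and 1 Il10 UMIs and intima resident macrophages 0, 5 and 36. The levels, 17.1, 46.6 and 4.83 against 0, 53.0 and 53.2 CPM, overlapped. B cells and T cells of the adventitia held 15.8 and 23.3 CPM. The highest adventitial cell held 31 of the 702 Il10 UMIs, against 10 for the highest macrophage, and its group is not given here.

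Nfkbia, whose product IkBa holds NF-kB in the cytoplasm and is resynthesised once NF-kB is active, was detected in every class. In intima resident macrophages there were 267, 147 and 2021 Nfkbia UMIs in descending a, descending b and arch, or 2354, 1559 and 2985 CPM. Lyve1 macrophages held 165, 231 and 227 UMIs there, or 705, 897 and 1097 CPM, and the groups did not overlap. Adventitial Lyve1, Ccr2 and serosal macrophages followed in rising order at 1341, 1502 and 2234 CPM. Endothelial cells held 345, 412, 406 and 851 CPM and fibroblasts 291, 620.4, 628 and 1014, both highest in the adventitia.

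Tnfaip3, which encodes the NF-kB terminator A20, had its highest intimal macrophage level in the arch. In intima resident macrophages there were 9, 3 and 126 Tnfaip3 UMIs, or 79.3, 31.8 and 186 CPM. Lyve1 macrophages held 7, 6 and 10 UMIs, or 29.9, 23.3 and 48.3 CPM, which overlap the descending intima resident values. Lymphoid cells were a second Tnfaip3 compartment and held, with plasma cells, 56.7% of its adventitial UMIs, from 48.8% of the cells. Unnamed clusters led by Cd163l1, by Gzma and Klra9 and by Ccl5 and Nkg7 stood at 294, 246 and 216 CPM, and T cells at 148. Serosal macrophages stood at 175 CPM, while endothelial cells held 13.4, 12.4, 10.4 and 26.8.

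Nfkbiz, which encodes the nuclear regulator IkBz, was high in every macrophage type. Intima resident macrophages held 432, 435 and 452 CPM in descending a, descending b and arch, and Lyve1 macrophages 338, 412 and 411. Adventitial Lyve1, Ccr2 and serosal macrophages held 405, 409 and 578 CPM. Outside macrophages the libraries differed more, with 45.6, 96.9, 30.6 and 205 CPM in endothelial cells and 101, 188, 91.0 and 349 in fibroblasts. A list of 12 dissociation and immediate early genes took the same order of libraries in endothelial cells, summing to 4599, 7192, 3422 and 15850.0 CPM. In fibroblasts it did not, summing to 6328, 10090.1, 7215 and 16301 CPM. There the list was lowest in descending a and Nfkbiz in the arch. The part of the list in the Nfkbiz values was not tested.

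**Figure D3:**
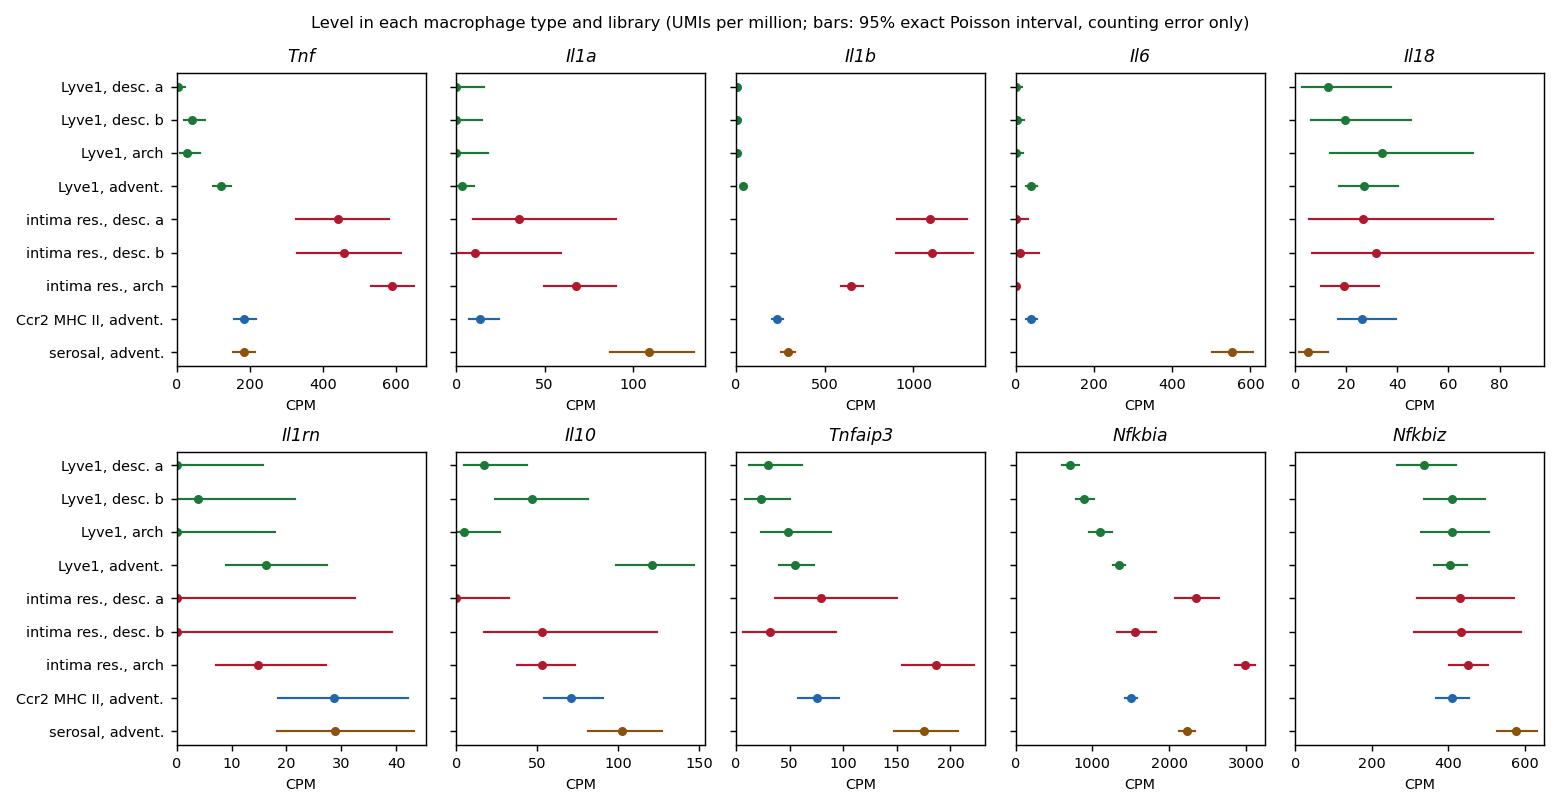
Level of each gene (x axis, CPM) in each macrophage type and library (y axis), with points for the summed group and bars for 95% exact Poisson intervals. The intima resident points of Tnf and Il1b lie right of all Lyve1 points, and the serosal point stands alone for Il6. Nfkbiz differs less between rows than Tnf and Il1b do, with the serosal point highest.

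The first comparison asked which of the 10 genes distinguish macrophages from endothelial cells, with the 3 intimal libraries as blocks. All 8 members that passed the count filter were higher in macrophages in edgeR's test, where 38.9% of 11562 genes tested differed, 18.0% higher and 20.9% lower. Il6 and Il1rn did not pass the filter. Log2 fold changes are given ± SE throughout. The largest were those of Il10 (7.81 ± 0.70, edgeR adjusted p = 5.88e-09), Il1b (7.74 ± 0.28, adjusted p = 1.05e-15) and Tnf (7.60 ± 0.26, adjusted p = 8.01e-16). The Il10 value rests on 2, 0 and 3 endothelial UMIs. Il1a followed at 6.77 ± 0.77, from 0, 0 and 9 endothelial UMIs. The feedback genes differed less, with Nfkbiz at 3.32 ± 0.25, Tnfaip3 at 2.97 ± 0.38 and Nfkbia at 2.29 ± 0.22, and Il18 at 2.23 ± 0.42. Each gene was higher in macrophages in all 3 libraries. The median of the 8 was 5.05, against -0.17 over all genes tested, and the dissociation list was higher for 9 of 12 genes and lower for 2, a movement whose part in the result was not tested.

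Of 54 other genes of the pathway, 51 were tested, and 30 were higher in macrophages and 4 lower. Their median log2 fold change was 1.11, against -0.17 over all genes tested. Receptors split, with Il10ra at 7.30 ± 0.37 and the decoy receptor Il1r2 at 7.60 ± 0.89 higher in macrophages, and Il6st (gp130) at -2.31 ± 0.22 lower. The signalling receptor Il1r1 was also called lower, with 0 UMIs in the macrophages of all 3 libraries, so no fold is given. The inflammasome sensor Nlrp3 (6.96 ± 0.48) and the NF-kB subunit Rel (3.49 ± 0.31) were higher in macrophages. The chemokines Ccl3 (8.56 ± 0.31) and Cxcl2 (7.24 ± 0.28) were higher too, while the adhesion genes Vcam1 (-2.06 ± 0.19) and Icam1 (-1.01 ± 0.23) were lower.

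Fibroblasts differed from endothelial cells in 4 of the 6 members tested, all higher, where 52.3% of 11784 genes differed, 26.0% higher and 26.4% lower. The Il6 difference was 6.90 ± 0.20 on the log2 scale (edgeR adjusted p = 3.90e-08), with fibroblasts above endothelial cells in each of the 3 libraries. Il18 followed at 2.45 ± 0.17 (adjusted p = 3.44e-06), then Nfkbiz at 1.37 ± 0.12 (adjusted p = 1.75e-05) and Nfkbia at 0.49 ± 0.17 (adjusted p = 0.0415). The Nfkbia call was lost without descending b (log2 fold change 0.33, adjusted p = 0.239) and without the library block (0.57, adjusted p = 0.139). Tnfaip3 was -0.64 ± 0.24 (adjusted p = 0.0531) and was called lower without descending b, at -1.02, and without the count filter, at -0.69 (adjusted p = 0.0190). Il1b at 0.43 ± 0.48 did not pass the test. Of 47 other pathway genes tested, 12 were higher and 11 lower. Il6ra, which binds IL-6, was 3.23 ± 0.16 higher in fibroblasts, and Socs3, an inhibitor induced by gp130 signalling, 4.41 ± 0.13 higher.

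Intima resident and Lyve1 macrophages were compared within the same 3 libraries. Of 6 members tested, 4 were higher in the intima resident type and none lower, where 27.8% of 2919 genes differed, 13.1% higher and 14.8% lower. Il1b differed by 7.34 ± 0.32 on the log2 scale (edgeR adjusted p = 1.75e-09) and Tnf by 4.32 ± 0.34 (adjusted p = 4.37e-07). Of the feedback genes, Tnfaip3 differed by 1.64 ± 0.35 (adjusted p = 0.00273) and Nfkbia by 1.40 ± 0.19 (adjusted p = 8.72e-05). Nfkbiz was 0.26 ± 0.18 (adjusted p = 0.348) and Il10 0.96 ± 0.68 (adjusted p = 0.342). The Il1b fold rests on 1, 2 and 1 Lyve1 UMIs, and the Tnfaip3 call was lost under DESeq2 (adjusted p = 0.132).

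Other target genes of NF-kB also divided the 2 types, not all in 1 direction. Over all pathway lists 8 of 31 tested genes were higher and 6 lower. Of 8 target genes tested, 5 were higher in the intima resident type, among them the chemokines Ccl4 (4.66 ± 0.19), Ccl3 (4.04 ± 0.22) and Cxcl2 (2.47 ± 0.18), and Ier3 was lower (-2.96 ± 0.28). Rel was higher (1.40 ± 0.39), as was the lipopolysaccharide co-receptor Cd14 (1.18 ± 0.18). Il6ra (-1.88 ± 0.35) and the TNF receptor Tnfrsf1a (-0.89 ± 0.24) were lower. Of 11 dissociation genes tested 3 were higher, Btg2, Atf3 and Ier2, and Fosb was lower. The list summed to 15535, 11359.9 and 12691 CPM in the intima resident type and 9649, 10222 and 14699.8 in the Lyve1 type, ranges that overlap.

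Within the intima resident type, Tnf and Il1b were often in the same cells. Of cells with a Tnf UMI, 92.9%, 90.0% and 77.8% also had an Il1b UMI in descending a, descending b and arch, against 7 of 11, 4 of 8 and 9 of 12 cells without one. The arch, with the most cells, showed the smallest gap. Median depths of cells with and without Tnf were 5165.5 and 4193, 3545 and 5954, and 9062 and 7158 UMIs, so deeper cells were not always the Tnf cells. In the arch, ranking the 75 cells separately for each gene, the top 8 held 31.4% of the Tnf UMIs, 39.3% of the Il1b UMIs and 82.6% of the Il1a UMIs.

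The comparison of the young arch with the aged descending intima has 1 library against 2, so its p-values assume that the arch library varies as the descending ones do. In all macrophages, Tnf stood at 147 and 153 CPM in the descending libraries and 457 in the arch. Nfkbia stood at 1244 and 1074 against 2543 CPM, and Tnfaip3 at 46.1 and 25.6 against 154. Il1a stood at 11.5 and 2.84 against 52.0 CPM. The arch was above both descending libraries for each of these genes. They were the 4 of 10 members called, all higher, where 5.51% of 7319 genes differed, 2.69% higher and 2.81% lower.

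The log2 differences were 1.70 ± 0.26 for Tnf (edgeR adjusted p = 7.51e-09), 1.23 ± 0.19 for Nfkbia (adjusted p = 5.32e-08), 2.20 ± 0.35 for Tnfaip3 (adjusted p = 8.37e-08) and 2.94 ± 0.61 for Il1a (adjusted p = 9.33e-05). Il1b was 0.69 ± 0.25 (adjusted p = 0.0827) and Nfkbiz 0.27 ± 0.25 (adjusted p = 0.699). The Il1a difference was 4.26 without descending a and 2.26 without descending b, and the Tnfaip3 difference 2.70 and 1.83. DESeq2 called Tnf and Nfkbia and gave no adjusted p for Tnfaip3 and Il1a, and without the count filter no member was called (adjusted p = 0.605 for each of the 4). Shares of all genes called under DESeq2 and without the filter are not given, so whether other genes lost calls as much is not known here. Of 47 other pathway genes tested 7 were higher and 2 lower, among them the adhesion gene Icam1 (1.38 ± 0.35) and the chemokine Ccl4 (1.02 ± 0.20), higher, and Ier3 (-1.25 ± 0.27), lower. The dissociation list summed to 11571 and 10527 CPM in the descending macrophages and 13161 in the arch, with 2 of 12 genes called higher, and its part in the result was not tested. The mix of types differed between the libraries, since the intima resident type made up 75 of 115 arch macrophages but 25 of 82 and 18 of 70 descending ones.

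Within types the values were as follows. In the Lyve1 type, Tnf differed by 0.24 ± 0.75, Nfkbia by 0.44 ± 0.25 and Tnfaip3 by 0.85 ± 0.70. The Tnf value was -0.55 without descending a and 2.67 without descending b, so its sign rests on 1 library. There edgeR called 0 of 6 members tested, with 1 (Il10, -2.67 ± 1.11) at an unadjusted p under 0.05, where 1.14% of 4202 genes differed (0.524% higher, 0.619% lower). In the intima resident type 1 of 5 was called, where 1.8% of 1838 genes differed (1.03% higher, 0.762% lower): Tnfaip3, at 1.70 ± 0.45 (edgeR adjusted p = 0.0139). Tnf differed there by 0.41 ± 0.37 (adjusted p = 0.935), Nfkbia by 0.62 ± 0.25 (adjusted p = 0.299) and Il1b by -0.73 ± 0.33 (adjusted p = 0.423). The Tnfaip3 call was lost under DESeq2, without the count filter and at a 5% mitochondrial limit (adjusted p = 1.00, 0.0785 and 0.0895), and the difference was 2.63 without descending a and 1.24 without descending b. In the test of whether the arch difference itself differed between the 2 types, edgeR called 0 of 7 members, with 1 (Il10) at an unadjusted p under 0.05, where 0.601% of 4328 genes did (0.3% larger, 0.3% smaller). Il1a did not pass the filter in either type.

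In arch endothelial cells 3 of 7 members were called, where 13.2% of 12985 genes differed (7.28% higher, 5.92% lower). Nfkbiz was lower at -1.14 ± 0.17 (edgeR adjusted p = 1.45e-09), from 45.6 and 96.9 CPM in the descending libraries to 30.6. The Nfkbiz difference was -1.58 without descending a and -0.49 without descending b, and with doublets kept its call was lost (adjusted p = 0.0596). Tnf (2.87 ± 0.54) and Il1b (2.15 ± 0.44) were called higher at levels of 4.08 and 4.91 CPM. Arch fibroblasts held a like 4.40 and 3.30 CPM, and macrophage markers in endothelial cells summed to 127, 94.4 and 253 CPM. Whether these Tnf and Il1b levels are endothelial expression or RNA from other cells was not tested. DESeq2 called none of the 3, and its share over all genes is not given here. Of the dissociation genes 2 of 12 were higher and 6 lower, and their part in the Nfkbiz result was not tested. Of 50 other pathway genes tested 4 were higher and 11 lower. Most arch endothelial cells lay in clusters led by Serpina1b and by Bmp4 and Edn1, and most descending ones in clusters led by Gja5, Adra2a and Coch.

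The arch difference itself differed between macrophages and endothelial cells for 4 of 9 members, where 1.66% of 12570 genes did (0.668% larger, 0.994% smaller). Tnfaip3 (2.53 ± 0.41), Nfkbiz (1.43 ± 0.26) and Nfkbia (1.14 ± 0.25) had a larger arch minus descending difference in macrophages, and Il1b a smaller one (-1.38 ± 0.40). Nfkbiz itself was not called in arch macrophages (0.27 ± 0.25) and was called lower in arch endothelial cells (-1.14 ± 0.17), a value that was -0.49 without descending b. The Il1b value rests on low endothelial levels, and whether these are endothelial expression was not tested. Of the dissociation genes 6 of 12 also had a larger arch difference in macrophages, and their part in the result was not tested. Both arch differences rest on the same 3 libraries. The intima resident type made up 75 of 115 arch macrophages but 25 of 82 and 18 of 70 descending ones. Against the Lyve1 type it was called higher for Il1b, Tnfaip3 and Nfkbia and not for Nfkbiz. The part of this mix in the result was not tested.

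In arch fibroblasts Il6 (-0.75 ± 0.24, edgeR adjusted p = 0.0352) and Nfkbiz (-0.67 ± 0.22, adjusted p = 0.0467) were called lower, 2 of 8 members, where 4.98% of 11542 genes differed (2.77% higher, 2.21% lower). The Il6 groups overlapped, with 40.7 CPM in the arch between 12.7 and 117. Without descending b the Il6 difference turned to 1.73 and the Nfkbiz difference was -0.09, so both calls rest on that 1 library. Of 49 other pathway genes tested 5 were higher and 5 lower. The dissociation list summed to 6328 and 10090.1 CPM in the descending fibroblasts and 7215 in the arch.

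**Figure D4:**
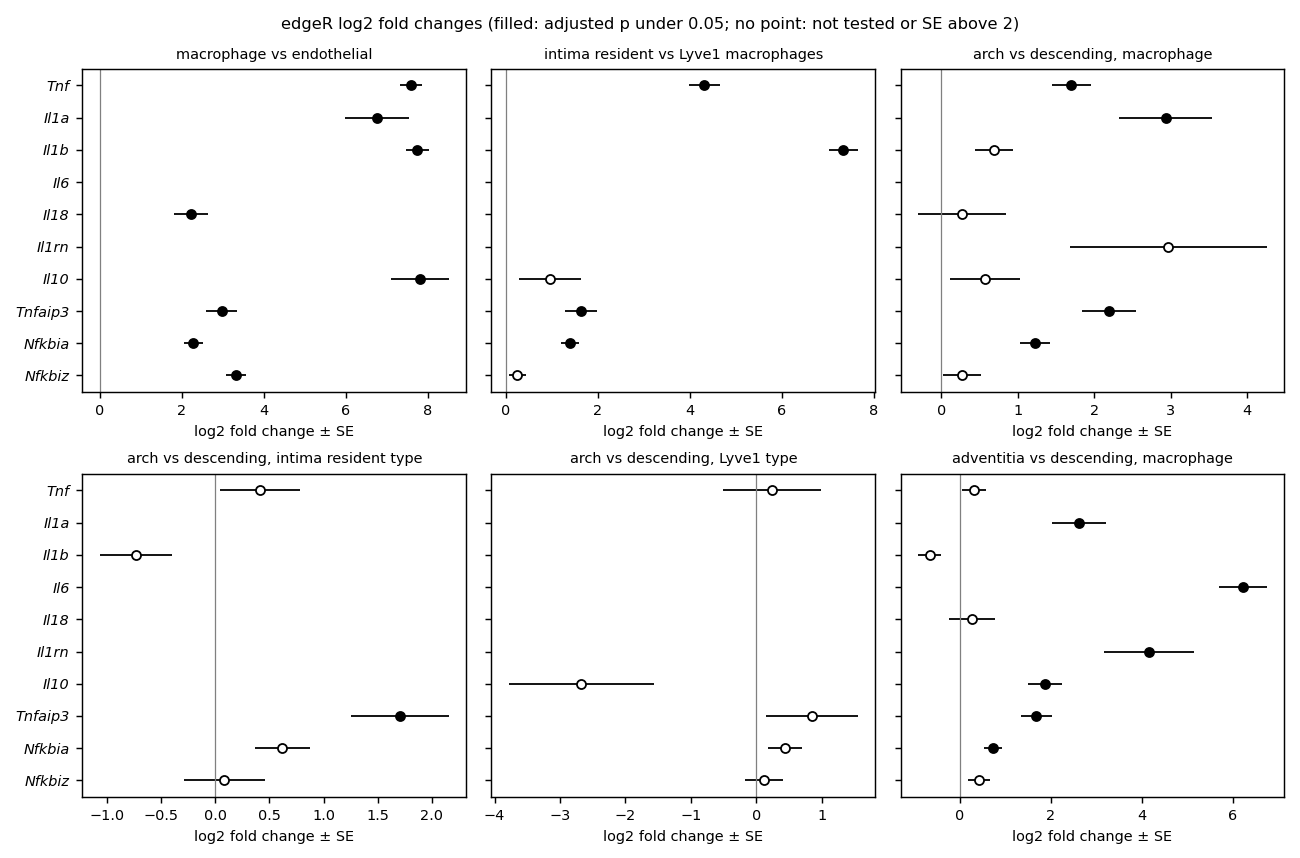
Log2 fold change of each gene (x axis, bars ± SE) in 6 comparisons, filled where the edgeR adjusted p is under 0.05 and without a point where the gene was not tested or its SE was above 2 or not estimated. All 8 points of the macrophage against endothelial panel are filled, 4 in the panel of intima resident against Lyve1 macrophages, and 1 (Tnfaip3) in the panel of the arch within the intima resident type.

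Adventitial macrophages were compared with descending ones, again 1 library against 2 and sharing the descending libraries with the arch comparison. Wall layer and library changed together here and cannot be told apart. Of 10 members, 6 were called, all higher, where 13.2% of 7319 genes differed, 7.56% higher and 5.63% lower. Il6 stood at 0 and 5.68 CPM in the descending libraries and 195 in the adventitia (6.23 ± 0.53, edgeR adjusted p = 1.54e-29). Il10 stood at 11.5 and 48.3 against 96.1 CPM (1.87 ± 0.37, adjusted p = 1.17e-05). The other calls were Il1rn (4.16 ± 0.99), Il1a (2.63 ± 0.58), Tnfaip3 (1.69 ± 0.34) and Nfkbia (0.73 ± 0.20). The Il6 and Il1rn folds rest on 2 and 1 descending UMIs and are not bounds. Without descending a and without descending b, the Il6 difference was 5.31 and 11.01, Il10 1.22 and 3.25, Il1a 3.96 and 1.96, and Tnfaip3 2.20 and 1.33. The Il1rn difference was 8.00 without descending b. Tnf differed by 0.32 ± 0.26 and Il1b by -0.66 ± 0.26, neither called. Of 47 other pathway genes tested 12 were higher and 6 lower, among them Cxcl1 (2.52 ± 0.25) and Sod2 (2.33 ± 0.26), higher, and Ccl4 (-1.08 ± 0.21), lower.

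The serosal type, which had no intimal cell, carried part of some of these values. Without the serosal type, Il10 at 1.85, Il1rn at 4.03 and Tnfaip3 at 1.14 were still called higher. Il6 was still called too, at 3.88 ± 0.76. Its levels were 39.6 CPM in the Lyve1 and 38.9 in the Ccr2 type, against 27.9 in T cells of that library. Il1a fell out of the calls at 0.43 and Nfkbia at 0.53, and Il1b was called lower at -1.07 (edgeR adjusted p = 0.000887), where 10.2% of genes differed. With the Lyve1 type alone, 3 of 6 members were called higher, where 11.1% of genes differed: Tnf at 2.55, Il10 at 2.12 and Nfkbia at 0.98. Both settings were chosen after the type levels were seen. DESeq2 and the test without the count filter called no member in all macrophages, with adjusted p from 0.188 to 1.00 and from 0.118 to 0.328 for the 6. Shares of all genes called in those settings are not given, so whether other genes lost calls as much is not known here. Adventitial Lyve1 macrophages also lay in a cluster apart from the intimal ones.

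In adventitial fibroblasts 7 of 8 members were called higher than in descending fibroblasts, where 25.1% of 11542 genes differed, 14.4% higher and 10.7% lower. Il6 differed by 2.55 ± 0.20 (edgeR adjusted p = 2.94e-36), Tnfaip3 by 2.11 ± 0.29, Nfkbiz by 1.42 ± 0.20 and Nfkbia by 1.31 ± 0.18. Il18 was -0.55 ± 0.25 and not called. The NF-kB targets Cxcl1 (3.35 ± 0.18), Cxcl2 (3.09 ± 0.21) and Ptgs2 (2.72 ± 0.20) were higher too, and 8 of 9 tested genes of that list were higher, with Vcam1 lower (-0.75 ± 0.21). Of all pathway genes tested 23 of 49 were higher and 4 lower. Of the dissociation genes 11 of 12 were higher, whose sum was 16301 CPM, and their part in the result was not tested. Tnf, Il1b and Il10 were called from 3.77, 17.3 and 3.57 CPM. Red cells in that library held like or higher levels, at 4.21, 30.1 and 4.81 CPM. Whether the fibroblast levels are fibroblast expression was not tested. DESeq2 called none of the 7, and its share over all genes is not given here. The Il6 difference was 1.76 without descending a and 5.02 without descending b. Without descending a and without descending b, Nfkbiz differed by 1.03 and 1.99, and Nfkbia by 0.84 and 2.00. Most adventitial fibroblasts lay in clusters led by Ccl11 and by Ptx3, with 659 and 567 of the 1445 cells and 3 intimal cells in all, while 222 of 337 and 528 of 648 descending ones lay in a cluster led by Dact2.

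Adventitial endothelial cells, nearly all in a cluster led by Btnl9 and Flt1 with no intimal cell, were higher for 6 of 7 members, where 39.6% of 12985 genes differed, 20.4% higher and 19.2% lower. Nfkbiz differed by 1.62 ± 0.16, Nfkbia by 1.26 ± 0.16 and Tnfaip3 by 1.14 ± 0.31 (edgeR adjusted p = 2.11e-21, 1.23e-13 and 0.00109). DESeq2 lost the Nfkbiz and Tnfaip3 calls (adjusted p = 0.214 and 0.173), and the 5% mitochondrial limit lost Tnfaip3 (adjusted p = 0.117). The Nfkbiz difference was 1.17 without descending a and 2.26 without descending b. Il1b stood at 32.4 CPM, against 36.2 in B cells, and whether this is endothelial expression was not tested. Tnf and Il6 stood at 21.1 and 38.8 CPM, against 15.4 and 27.9 in T cells and 4.21 and 18.7 in red cells. Whether these are endothelial expression was not tested either. Of 50 other pathway genes tested 17 were higher and 12 lower. As in fibroblasts, 11 of 12 dissociation genes were higher, and neutrophil markers summed to 431 CPM. Their part in the result was not tested.

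Genes whose level followed each gene most closely were sought over 34 sums of class and library, as Pearson's r of log2(CPM + 1), which share libraries and depth. Tnf ran closest with Clec10a (r = 0.898), then Gm49339 and Alox5, and Il1b with Ccr1 (r = 0.900), then Plbd1 and Ncf4. Il1rn ran closest with Trim30b (r = 0.821), then Cebpe and Clec4e, and Il6 with Hp (r = 0.811), then Pygl and Lpl. Nfkbia ran closest with Zfand5 (r = 0.930), then Ccnl1 and Ier5, and Tnfaip3 with Nabp1 (r = 0.866), then Ankrd44 and Ptpn18.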

How the data were processed

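Deposited files were gene by barcode matrices of raw UMI counts, made by the authors with Cell Ranger 2.1.2 on mm10, per the submitters' processing notes. No other step of the authors' counting is given in the sources used here. Ensembl IDs were matched to symbols with a GENCODE M21 table, and 27645 of 27998 genes had one. Gene positions are in GRCm38. The 10 genes, the gene lists and the tests were chosen with earlier results of these data known.

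Cells with under 200 genes or over 10% mitochondrial UMIs were dropped, and the cells with the highest Scrublet doublet scores were removed, at a rate of 0.8% per 1000 cells kept (42, 41, 58 and 593 cells). Scrublet's own threshold marked 6, 23, 17 and 2. Clustering used scanpy 1.11.5 (2000 variable genes, 30 components, 15 neighbours, resolution 1.0, and 0.5 within macrophages), without the 10 genes and the pathway lists. It gave 32 clusters, named where at least 3 markers of 1 of 21 lists defined them. Macrophage types were named in the same way.

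Raw counts were summed per library and cell class or type and tested with edgeR 4.0.16 (quasi-likelihood test, TMM factors, filterByExpr, Benjamini-Hochberg adjustment over all genes tested, threshold 0.05). Every adjusted p in the text is from edgeR unless DESeq2 is named. Cell class comparisons used the 3 intimal libraries as blocks. Comparisons of arch or adventitia with descending libraries rest on 1 residual degree of freedom, and the fits shared the spread fully across genes. The labels do not say whether descending a and b came from different mice, so their spread may be technical. Alternatives were RLE factors, DESeq2 1.42.0, no count filter, no library block, each library left out, doublets kept, all variable genes, a 5% mitochondrial limit, and cells thinned to 2000 or 1000 UMIs. The genes given full values were the 10 named above, with pathway genes named up to 4 a list and direction by lowest adjusted p, and the 3 closest genes by correlation for 6 of the 10. The tests were checked on simulated counts.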

Additional observations from a re-analysis of the deposited data

Results flagged for a closer look

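The arch minus descending difference was set apart from the rest because it differed between macrophages and endothelial cells by the interaction test in edgeR. For Tnfaip3 the difference was 2.53 larger in macrophages on the log2 scale, for Nfkbiz 1.43 larger and for Nfkbia 1.14 larger. Nfkbiz was not called in arch macrophages (0.27 ± 0.25) and was lower in arch endothelial cells (-1.14 ± 0.17, or -0.49 without descending b). For Il1b it was -1.38, smaller in macrophages. Each value sets 1 arch library against 2 descending ones. The intima resident type made up 75 of 115 arch macrophages but 25 of 82 and 18 of 70 descending ones. The part of this mix in the values was not tested. DESeq2 called 0 of the 3 for which it gave an adjusted p (0.224 for Il1b, 0.134 for Nfkbia, 0.180 for Nfkbiz) and gave none for Tnfaip3, and with doublets kept the Il1b and Nfkbia calls were lost (edgeR adjusted p = 0.0623 and 0.0582). With RLE factors the Il1b call was lost as well (-1.44, edgeR adjusted p = 0.0892). Shares of all genes called in these settings are not given here.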

How the results depend on the processing

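Between cell classes within the intima, the number of members called moved little across the settings given next. Macrophages against endothelial cells gave 7 to 8 calls with 1 library left out and up to 9 without a count filter, and leaving out 1 library gave 4 calls for fibroblasts against endothelial cells and 3 to 4 for the 2 macrophage types. Without the replicate block those counts were 8, 3 and 4. No paired analysis was possible for arch or adventitia against descending libraries because the labels give no pairing between them. Their counts moved more. Apart from the Lyve1 type alone, the share of all genes called is not given for the alternatives here. The counts therefore do not say whether the members lost calls more than other genes did. DESeq2 called 2 members in arch macrophages (Tnf and Nfkbia) and 0 in arch endothelial cells, arch fibroblasts, arch intima resident macrophages, adventitial macrophages, adventitial fibroblasts and the test of the arch difference between macrophages and endothelial cells. It gave no adjusted p for Tnfaip3 and Il1a in arch macrophages and for Tnfaip3 in the last of these. Without a count filter there were 0 calls in arch macrophages, arch fibroblasts, arch intima resident macrophages and adventitial macrophages. RLE factors left 1 call in arch fibroblasts, the 5% mitochondrial limit left 0 there and 0 in arch intima resident macrophages, and keeping doublets left 2 in the test of the arch difference. Adventitial against descending macrophages of the Lyve1 type alone, an alternative chosen after seeing the data, gave 3, where 11.1% of 4202 genes differed. The Il6 difference in arch fibroblasts ran from -1.53 without descending a to 1.73 without descending b, a reversal. Leaving out a descending library from the arch and adventitia comparisons left no residual degrees of freedom, so those are values with no test. With doublets kept the adventitial endothelial cluster had no name, so that comparison could not be run. Low depth limits Il1a, Il1rn and Il10 in the intima, each with under 60 UMIs a library.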
